A study of Mus musculus with 4 samples.

Results

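The genes described here are the 10 mouse genes of MHC class II antigen presentation that the table lists as H2-Aa, H2-Ab1, H2-Eb1, H2-DMa, H2-DMb1, H2-DMb2, H2-Oa, H2-Ob, Cd74 and Ciita. They were chosen by name, and all 10 were found among 28074 gene symbols and passed the filter of a mean of at least 1 FPKM that left 12612 genes for testing. RNA sequencing had been run on 4 samples of leukaemic spleen cells from 2 mice, numbered 4050 and 4182. Both mice carried floxed Dnmt3a, the internal tandem duplication allele of Flt3 (written as homozygous) and Mx1-Cre, a recombinase driven by an interferon-inducible promoter. The labels write the Dnmt3a state both as fl/fl and as +/-, which was not resolved here, and they give no age or strain. Thawed cells of each mouse were cultured with SCF, IL6 and IL3 and kept for 3 days with vehicle (control, n = 2) or 10 µg/ml R848 (n = 2). R848, or resiquimod, is an imidazoquinoline that activates the endosomal RNA sensor TLR7. Every group is therefore 2 animals, and the control cells share the genotype and the cytokines with the treated cells.

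MHC class II molecules are pairs of an alpha and a beta chain that show peptides from endosomes to CD4 T cells. New pairs are held by the invariant chain (Cd74), which cathepsins trim down to a short fragment, and the H2-DM pair then exchanges that fragment for a peptide while the H2-DO pair restrains H2-DM. B cells and dendritic cells carry class II constantly, macrophages gain it under interferon gamma, and in all of them the coactivator CIITA (Ciita) switches the genes on by joining the RFX, CREB and NF-Y proteins bound to the X and Y boxes of their promoters.

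The promoters of the members are shown first because the X and Y boxes are what these genes are known to share. RefSeq promoter sequences (GRCm38.p6) were at hand for 7 of the 10 members, and 250 bases before each start were searched on both strands for the Y box GATTGG and for the end of the X1 box, ACNGATG. The lines below give 61 bases, 5′ to 3′ on the strand of the gene and outside annotated exons, with matches to the 2 motifs in capitals.
H2-Eb1 (chr17:34305767-34305827, + strand): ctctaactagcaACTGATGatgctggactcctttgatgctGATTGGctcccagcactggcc
H2-DMb2 (chr17:34145118-34145178, + strand): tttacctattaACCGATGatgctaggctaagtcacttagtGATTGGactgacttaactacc
H2-Eb2, a class II beta chain gene next to H2-Eb1 and not among the 10 (chr17:34325534-34325594, + strand): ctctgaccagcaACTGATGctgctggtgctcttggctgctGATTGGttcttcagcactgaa
H2-Aa (chr17:34287852-34287912, - strand): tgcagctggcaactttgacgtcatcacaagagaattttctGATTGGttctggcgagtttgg
H2-Ob (chr17:34238807-34238867, + strand): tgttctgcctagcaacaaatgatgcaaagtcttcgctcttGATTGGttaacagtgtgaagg

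GATTGG was in 14.6% of all 32851 promoters and ACNGATG in 8.31%. An ACNGATG upstream of a GATTGG on the same strand was in 0.326% of all promoters, and with 21 to 23 bases between them, a spacing chosen after it was seen in these genes, in 8 promoters. Those 8 included H2-Eb1, H2-DMb1, H2-DMb2 and H2-Eb2. In H2-DMb1 and H2-DMb2 the spacing was 22 bases, and 52 of the 61 bases of the window were identical between these genes. H2-Aa and H2-Ob had the Y box without the X1 motif upstream of it on the same strand in these letters (H2-Aa had ACNGATG on the opposite strand, outside the window shown), and in H2-Oa the motifs stood 86 bases apart. H2-DMa, with 2 starts in the table, had a Y box before 1 of them and no X1 motif. A match is a description of letters and was not tested as a binding site.

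Values are called FPKM, a level per transcript length, as the table's name does. The linear values of each sample summed to between 950530 and 962001, close to the fixed total that TPM has, so they may be TPM, which could not be settled from the sources used here. Differences are of log2(FPKM + 1), which understates the change of low genes. The number of reads behind a value is unknown. Across the series, 233 of the 12612 genes (1.85%) passed limma's test of R848 against control at an adjusted p under 0.05, 185 higher (1.47%) and 48 lower (0.381%). A second fit took the mouse as a block (the paired fit below) and called 669 genes (5.30%). In these bulk samples, fewer cells of a type and less RNA per cell cannot be told apart.

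No class II gene passed the test of R848 against control. Of the 10 members, 0 passed limma against a background of 1.85% of all genes, and 0 had an unadjusted p under 0.05 (1454 of all genes did). In the paired fit 0 passed, against 5.30% of all genes. There 1 member (H2-Ob) had an unadjusted p under 0.05, with no count over all genes to set beside it. With so few genes called in either fit, a count of 0 among 10 members says little. The member median was 0.20 on the log2 scale, beside -0.08 for all genes tested. In mouse 4050 the median was -0.15, beside 0.00365 for all genes, and in mouse 4182 it was 0.53, beside -0.16. The 10 values summed to 855 and 759 FPKM in the controls of mice 4050 and 4182, and to 728 and 1156 FPKM with R848. The sum with R848 was thus the lowest of the 4 samples in one mouse and the highest in the other.

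**Figure D1:**
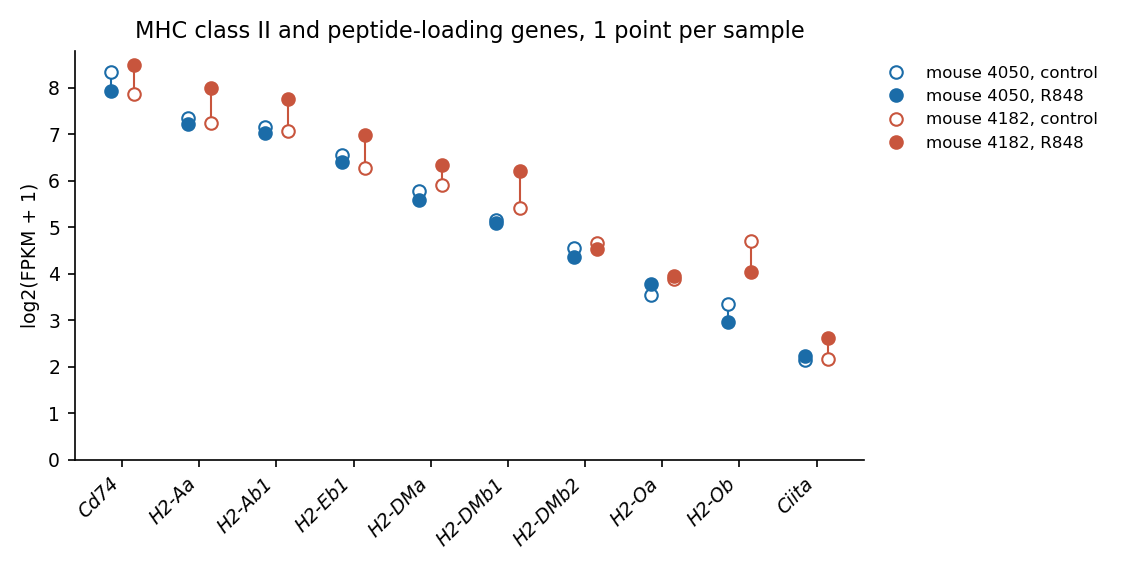
Level of each of the 10 class II genes as log2(FPKM + 1) on the vertical axis, with 1 point per sample, open for control and filled for R848, and a line joining the samples of a mouse (blue 4050, red 4182). For 6 genes the red line goes up and the blue line goes down, among them H2-Aa, with 163 and 148 FPKM in mouse 4050 and 150.4 and 252 FPKM in mouse 4182.

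The mean level over the 4 samples fell from Cd74 (288 FPKM) through H2-Aa (178), H2-Ab1 (155), H2-Eb1 (94.5), H2-DMa (59.9), H2-DMb1 (45.6), H2-DMb2 (22.1), H2-Ob (14.1) and H2-Oa (12.9) to Ciita (3.94). Neighbours in this order had overlapping sample values except where H2-Ab1 stood above H2-Eb1, H2-DMb1 above H2-DMb2 and H2-Oa above Ciita. By these means the coactivator stood lowest, and the invariant chain highest, per transcript length.

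The classical chains are encoded by H2-Aa and H2-Ab1, the alpha and beta chains of I-A, and by H2-Eb1, the beta chain of I-E. H2-Aa (ENSMUSG00000036594, GRCm38 chromosome 17, 34282744 to 34287823) measured 163 FPKM in control and 148 under R848 in mouse 4050, and 150.4 and 252 in mouse 4182. The R848 sample of mouse 4182 was high and the other 3 lay close together, so the groups overlapped. Control averaged 157 ± 8.76 and R848 200.3 ± 73.4 (SD, n = 2 each). The log2 difference was 0.30 with a 95% interval from -0.28 to 0.89 (limma adjusted p = 0.723), an interval that holds both no change and a rise of the size seen in mouse 4182.

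H2-Ab1 (chromosome 17, 34257689 to 34269419) measured 142 FPKM in control and 130.0 under R848 in mouse 4050, and 132 and 215 in mouse 4182. Its ratio of R848 to control was 0.917 in mouse 4050 and 1.62 in mouse 4182, with a log2 difference of 0.29 (limma adjusted p = 0.735). H2-Eb1 (34305867 to 34316674) was at 93.3 and 82.9 FPKM in mouse 4050 and at 76.7 and 125 in mouse 4182, with a log2 difference of 0.27 (limma adjusted p = 0.740). In both genes, as in H2-Aa, the treated sample of mouse 4182 was the highest of the 4 and the controls of the mice bracketed or exceeded the treated sample of mouse 4050. Their chains stayed in nearly fixed proportion: H2-Aa was 1.14 to 1.17 times H2-Ab1 in the 4 samples, and H2-Eb1 was 0.580 to 0.658 times H2-Ab1. H2-Ea-ps, the I-E alpha locus listed as a pseudogene, was at 0 in 3 samples and at 0.0488 FPKM in the R848 sample of mouse 4050.

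Cd74, the invariant chain (chromosome 18), measured 323 FPKM in control and 244 under R848 in mouse 4050, and 232 and 355 in mouse 4182. The order of the groups was opposite in the mice, and the log2 difference was 0.10 (95% interval -0.45 to 0.66, limma adjusted p = 0.920). Cd74 was 2.27 times H2-Ab1 in the control of mouse 4050 and between 1.65 and 1.87 times in the other 3 samples.

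H2-DMa and H2-DMb1 encode the chains of the peptide exchanger, with H2-DMb2 a neighbouring second beta chain gene. H2-DMa (chromosome 17, 34119541 to 34139101) was at 53.6 and 47.1 FPKM in mouse 4050 (control, then R848) and at 59.3 and 79.6 in mouse 4182. H2-DMb1 (34153072 to 34160230) was at 34.7 and 33.3 FPKM in mouse 4050 and at 41.7 and 72.6 in mouse 4182. H2-DMb2 (34143307 to 34151555) was at 22.5 and 19.5 FPKM in mouse 4050 and at 24.3 and 22.1 in mouse 4182. H2-DMa and H2-DMb1 were thus highest in the treated cells of mouse 4182, as the classical chains were, whereas H2-DMb2 was lower with R848 in each mouse. Their log2 differences were 0.12, 0.36 and -0.16 (limma adjusted p of 0.910, 0.759 and 0.789).

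The ratio of H2-DMb1 to H2-DMb2 was between 1.54 and 1.72 in 3 samples and 3.28 in the R848 sample of mouse 4182. These genes are close copies. Of the 1648 distinct stretches of 31 bases in the H2-DMb1 transcripts of GENCODE M21, 31.4% also occur in H2-DMb2 transcripts, and for each of the other 8 members outside this pair at most 1.41% occur in any other gene's transcripts. How the authors' counting divided reads between H2-DMb1 and H2-DMb2 is not given in the sources used here, so their separate values are uncertain. Their sum was 57.2 and 52.7 FPKM in mouse 4050 and 66.0 and 94.8 in mouse 4182, and H2-DMa was 0.840 to 0.938 times that sum in the 4 samples.

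H2-Oa and H2-Ob encode the alpha and beta chains of the H2-DM inhibitor, and their patterns differed from each other. H2-Oa (chromosome 17, 34092340 to 34095234) was at 10.7 and 12.7 FPKM in mouse 4050 and at 13.7 and 14.5 in mouse 4182, a log2 difference of 0.15 (limma adjusted p = 0.849). H2-Ob (34238903 to 34254414) was at 9.21 and 6.73 FPKM in mouse 4050 and at 25.2 and 15.3 in mouse 4182. H2-Ob was lower with R848 in each mouse, to 0.731 and 0.608 times the control, with a log2 difference of -0.54 (95% interval -1.68 to 0.60, limma adjusted p = 0.756). In the paired fit its unadjusted p was 0.0188 and its limma adjusted p 0.182. H2-Ob was 0.859 and 0.532 times H2-Oa in mouse 4050 and 1.83 and 1.06 times H2-Oa in mouse 4182, so the chains of this pair were not held in a fixed proportion.

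Ciita, the coactivator (ENSMUSG00000022504, chromosome 16, 10480059 to 10528418), measured 3.44 FPKM in control and 3.70 under R848 in mouse 4050, and 3.50 and 5.13 in mouse 4182. The treated samples were both above the controls, which averaged 3.47 ± 0.0431 FPKM (SD, n = 2). The log2 difference was 0.26 (95% interval -0.27 to 0.80) and did not pass (limma adjusted p = 0.746). Ciita, whose treated samples were higher, and H2-DMb2, whose treated samples were lower, were the 2 members whose groups did not overlap, and in all genes 42.2% had groups that did not overlap, 13.5% with R848 higher and 28.8% with R848 lower.

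The change with R848 had opposite signs in the mice for several of these genes. Of the 10 members, 6 (H2-Aa, H2-Ab1, H2-Eb1, H2-DMa, H2-DMb1 and Cd74) were lower with R848 in mouse 4050 and higher in mouse 4182, a pattern of 10.5% of all genes tested. The change was larger in mouse 4182 by at least 0.6 on the log2 scale in the same number of members, against 504 of the 12612 genes, a bound chosen after the values were seen. The median absolute difference between the changes of the mice was 0.71 over the members and 0.27 over all genes. With 1 sample per mouse and treatment, whether the response differed between the mice was not tested. Left without the R848 sample of mouse 4182, the log2 differences of H2-Aa, H2-Ab1, H2-Eb1, H2-DMa, H2-DMb1 and Cd74 were -0.08, -0.07, -0.03, -0.25, -0.19 and -0.17.

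**Figure D2:**
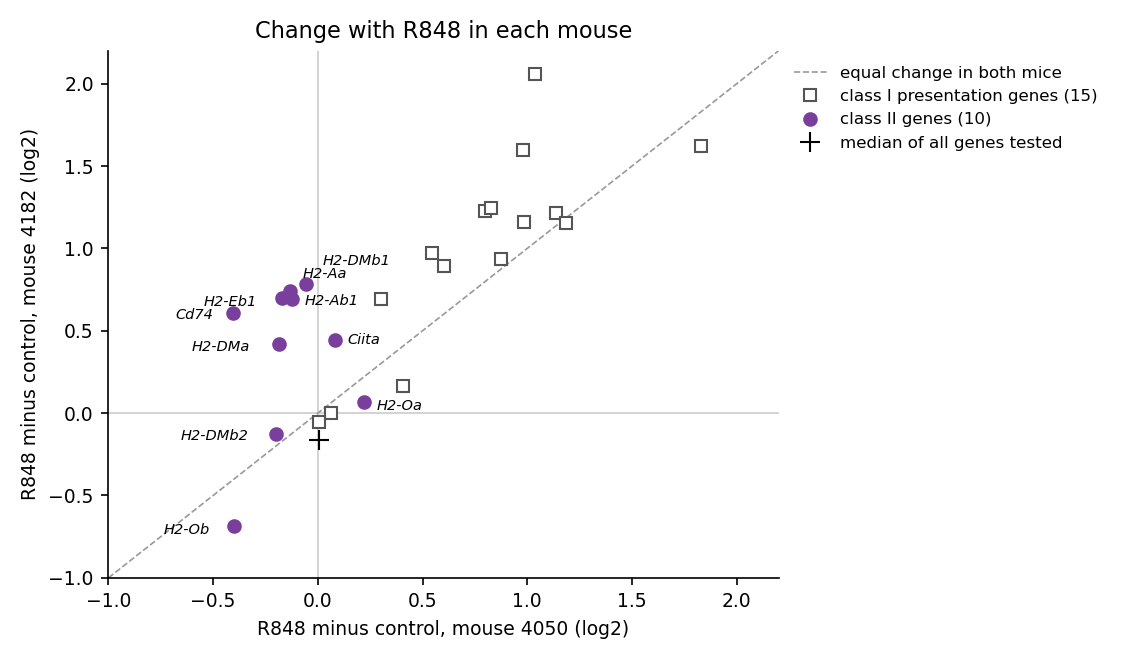
Difference of log2(FPKM + 1) between R848 and control in mouse 4050 (horizontal) and in mouse 4182 (vertical) for the 10 class II genes (filled) and the 15 class I presentation genes measured (open squares), with the median of all genes as a cross. Of the filled points, 6 lie below 0 in mouse 4050 and above 0 in mouse 4182, while 13 of the 15 squares lie above 0 on both axes.

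The animals could also be compared with the treatment as a term in the fit, a test of these 2 mice and not of any class of mice. Of the members, 1 passed, H2-Ob, against a background of 1.36% of all genes (0.468% higher in mouse 4182). Its mean was 7.97 FPKM over the samples of mouse 4050 and 20.2 FPKM over those of mouse 4182, higher in mouse 4182 by 1.22 on the log2 scale (SE 0.20 and limma adjusted p = 0.00810). The call ended when the treatment term was left out (limma adjusted p = 0.963) and with no filter on low genes (0.445). H2-DMb1 came next, higher in mouse 4182 by 0.68 on the log2 scale (limma adjusted p = 0.175), and Cd74 had the smallest difference, 0.03 (0.983).

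Likeness was measured as the Euclidean distance between log2 values centred on each gene's mean over the 4 samples, among 12611 other genes. With 4 samples many genes lie close by, so this is a description. The gene nearest to H2-Ab1 was H2-Aa (distance 0.0362), followed by Ctsc (0.0871), a lysosomal protease, Mecom (0.107), Gm13150 (0.123) and Hpse (0.145). H2-Eb1 was at rank 6, H2-DMa at 20, Ciita at 27, Cd74 at 91 and H2-DMb1 at 145, while H2-Oa was at 631, H2-DMb2 at 1797 and H2-Ob at 11880. Around Cd74 the nearest were Afp, Gm10037, Eng, Gm13642 and Lpxn (distances 0.137 to 0.180), with H2-Eb1 at rank 13. The nearest to H2-Ob, looked up after its values were seen, were Gm15051, Sag, Tmem108, Clec10a and Gm11962 (0.261 to 0.307).

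Clec10a, a macrophage and dendritic cell lectin, was at 54.4 and 35.6 FPKM in mouse 4050 (control, then R848) and at 122 and 64.6 in mouse 4182. It was higher in mouse 4182 by 0.99 on the log2 scale with the treatment as a term (limma adjusted p = 0.00696). That call ended without the treatment term (0.963), with no filter (0.405) and with a prior without a trend (0.0750). In the paired fit Clec10a also fell with R848, by 0.75 on the log2 scale (limma adjusted p = 0.0145), a call absent from the unpaired fit (0.553). Clec10a was taken up here for its likeness to H2-Ob in the same 4 samples. Its differences between mice and with R848 therefore follow in part from that choice.

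All members but Cd74 and Ciita lie in 1 region of chromosome 17, which from H2-Oa to Btnl2 spans 277 kb. Within it, Tap1 and Tap2, the peptide transporter of the class I pathway, and Psmb8, an immunoproteasome subunit, stand between H2-DMb1 and H2-Ob. Tap1 (34187553 to 34197225) was at 56.9 and 131 FPKM in mouse 4050 (control, then R848) and at 86.4 and 194 in mouse 4182. Psmb8 (34197721 to 34201454) was at 268 and 391 FPKM in mouse 4050 and at 283 and 556 in mouse 4182. These class I genes were higher with R848 in each mouse, by 1.18 and 1.15 for Tap1 and by 0.55 and 0.97 for Psmb8 on the log2 scale. Neither passed in the unpaired fit (limma adjusted p = 0.0912 and 0.148) and both rose in the paired fit (limma adjusted p = 3.2e-04 and 0.0124).

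Tap2, the gene after Psmb8, was at 101 and 106 FPKM in mouse 4050 and at 133.3 FPKM in both samples of mouse 4182 (limma adjusted p = 0.978). Brd2, a chromatin reader beside H2-DMa, had a log2 difference of -0.09 (limma adjusted p = 0.899), and H2-Eb2, at 0.960 to 1.33 FPKM, one of -0.06 (0.962). Btnl2 was at 0.0315 to 0.285 FPKM and was not tested. Neighbours in the region thus had unlike values, as Tap1 and Tap2 did.

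**Figure D3:**
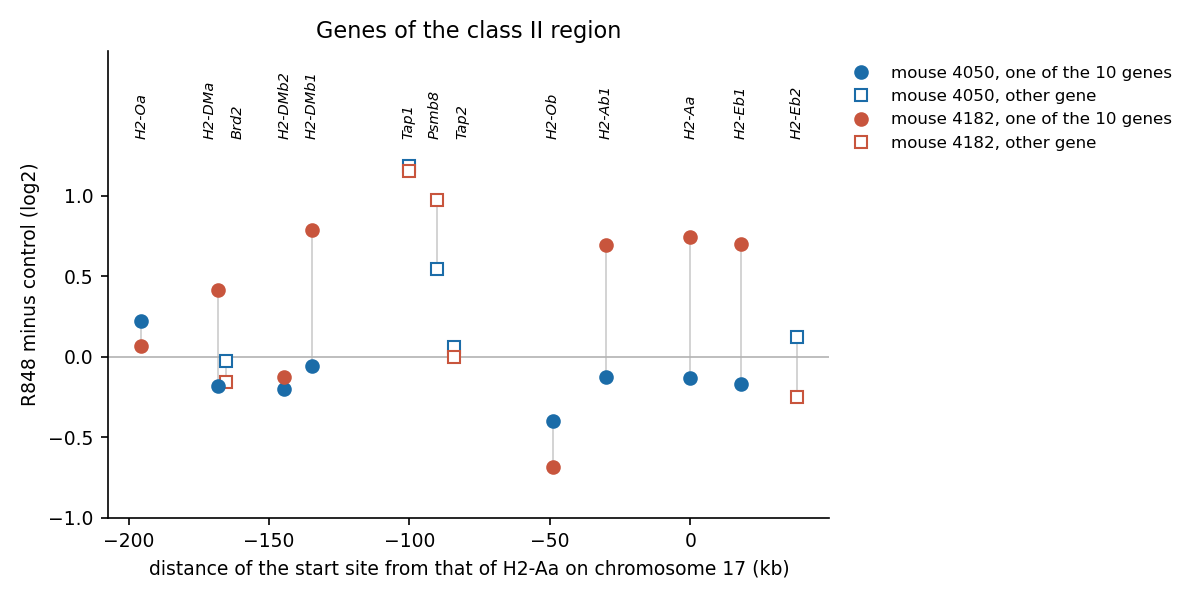
Difference of log2(FPKM + 1) between R848 and control for each tested gene of the class II region of chromosome 17, placed by the distance of its start site from that of H2-Aa in kb (circles, members; squares, other genes; blue, mouse 4050; red, mouse 4182). The red and blue squares of Tap1 coincide near 1.15 to 1.18, whereas the circles of H2-Ab1, H2-Aa and H2-Eb1 are parted by 0.82 to 0.87.

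Upstream of Ciita, interferon gamma, its signalling proteins and known repressors were examined, and 4 of the 11 tested genes of that list rose and 0 fell by limma, with a list median of 0.35. Ifng, the cytokine itself, was listed at 0 and 0.0364 FPKM in the controls and was at 4.39 FPKM with R848 in mouse 4050 and at 15.8 in mouse 4182 (limma adjusted p = 0.0225). Its treated samples stood above the controls, with the value of mouse 4182 the higher of the pair. Also called, and named after their values were seen, were Irf1, a factor acting on the interferon-responsive Ciita promoter, at 2.07, and Socs1, a brake on the pathway, at 1.13 (limma adjusted p = 0.00351 and 0.0419).

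The calls of Ifng and Socs1 ended under quantile normalization (limma adjusted p = 0.106 and 0.126), while that of Irf1 held. The receptor genes Ifngr1 and Ifngr2 did not pass, with log2 differences of -0.17 and 0.11. Prdm1, a repressor of Ciita in plasma cells, was at 0.689 and 1.63 FPKM in mouse 4050 and at 0.568 and 2.31 in mouse 4182 (limma adjusted p = 0.214). In the same samples Ciita was at most 1.47 times its control.

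Of the 7 genes for the proteins that Ciita joins on the promoter (Rfx5, Rfxap, Rfxank, Nfya, Nfyb, Nfyc and Creb1), 0 passed by limma, 0 had an unadjusted p under 0.05, and the median was -0.17. Rfxap, an RFX subunit, was at 7.82 and 6.26 FPKM in mouse 4050 and at 8.48 and 5.44 in mouse 4182 (log2 difference -0.42, limma adjusted p = 0.487). Creb1 had a log2 difference of -0.21 (0.731). Ciita was not called either. Over all genes tested 1.85% were called, so a count of 0 in so short a list says little.

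Invariant chain processing and antigen processing were covered by 11 genes, of which 1 rose and 0 fell by limma (2 rose in the paired fit), with a median of 0.28. Lgmn, an asparagine endopeptidase of endosomes, was at 27.7 and 65.1 FPKM in mouse 4050 and at 32.5 and 83.3 in mouse 4182, and its change on the log2 scale was 1.27 (limma adjusted p = 0.0216). Its call ended under quantile normalization (0.0853) and median log ratio scaling (0.0713). Sppl2a, the protease that clears the last membrane stub of the invariant chain, rose by 0.59 in the paired fit (limma adjusted p = 0.0479) and did not pass without it (0.238).

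Ctss, the main cathepsin for the invariant chain, was at 459 and 518 FPKM in mouse 4050 and at 369 and 646 in mouse 4182, a log2 difference of 0.49 (limma adjusted p = 0.353). Ctsc, the gene second nearest to H2-Ab1, was at 345 and 332 FPKM in mouse 4050 and at 310 and 518 in mouse 4182 (0.34, limma adjusted p = 0.644). The treated cells of mouse 4182 were the highest of the 4 samples for both cathepsins, as they were for H2-Aa, H2-Ab1, H2-Eb1, H2-DMa and H2-DMb1. Ctsc was named here for its likeness to H2-Ab1 in the same samples, so its order follows in part from that choice. Ctsb and Ctsz were also highest there. Ctsl, Ctsd and Ctsh were highest in the treated cells of mouse 4050, at 169, 633 and 109 FPKM.

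Il10, a cytokine known to lower class II at the cell surface, was at 0.171 and 2.40 FPKM in mouse 4050 and at 0.166 and 5.08 in mouse 4182. It rose by 1.96 on the log2 scale (limma adjusted p = 0.0316), a call that ended under quantile normalization (0.109), and Cd83, which protects class II from turnover, had a difference of 0.44 (0.630). The list on the invariant chain as a receptor for the cytokine MIF held 4 genes (Mif itself, Cd44, Cxcr2 and Cxcr4). Of these, 0 passed by limma, with 1 at an unadjusted p under 0.05. Cxcr4 fell by 0.61 on the log2 scale in the paired fit (limma adjusted p = 0.0436), and Cd44 had a difference of -0.30 without it (0.625). Among 6 costimulatory and checkpoint ligands, Cd274, which encodes the checkpoint ligand PD-L1, rose by 1.38 (limma adjusted p = 0.0129), and Cd80 also rose in the paired fit (0.0240).

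Class I presentation, which loads peptides from the cytosol, was set beside class II. Of the 15 tested genes of that list, 5 rose and 0 fell by limma (11 rose in the paired fit). The median was 1.01, beside 0.20 for the class II members. In both mice 13 of the 15 genes were higher, as were 2 class II members (H2-Oa and Ciita) and 22.1% of all genes tested. The class II count of 2 of 10 was thus near the share of all genes. Nlrc5, the CIITA relative that activates class I genes, was at 6.96 and 27.3 FPKM in mouse 4050 and at 11.3 and 37.0 in mouse 4182, a log2 difference of 1.73 (limma adjusted p = 0.0231). Psmb10, an immunoproteasome subunit, rose by 1.55 (0.0277). Both calls ended under quantile normalization (0.0868 and 0.120), fitted unpaired.

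H2-K1, a class I heavy chain, was at 571 and 1132 FPKM in mouse 4050 and at 812 and 1814 in mouse 4182. It was 4.03 and 6.14 times H2-Ab1 in the controls of mice 4050 and 4182 and 8.71 and 8.45 times with R848. B2m, the class I light chain, was at 1234 and 2713 FPKM in mouse 4050 and at 1916 and 4444 in mouse 4182. H2-K1 and B2m did not pass in the unpaired fit (limma adjusted p = 0.130 and 0.132). Both rose in the paired fit (limma adjusted p = 9.4e-04 and 8.3e-04). The log2 ratio of H2-K1 to H2-Ab1 was 0.79 higher with R848 and that of B2m to H2-Ab1 0.89 higher. In both ratios the treated samples stood above the controls. An exact two-sided permutation test of 2 against 2 samples cannot go below p = 0.333, and the ratios were not tested in another model.

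**Figure D4:**
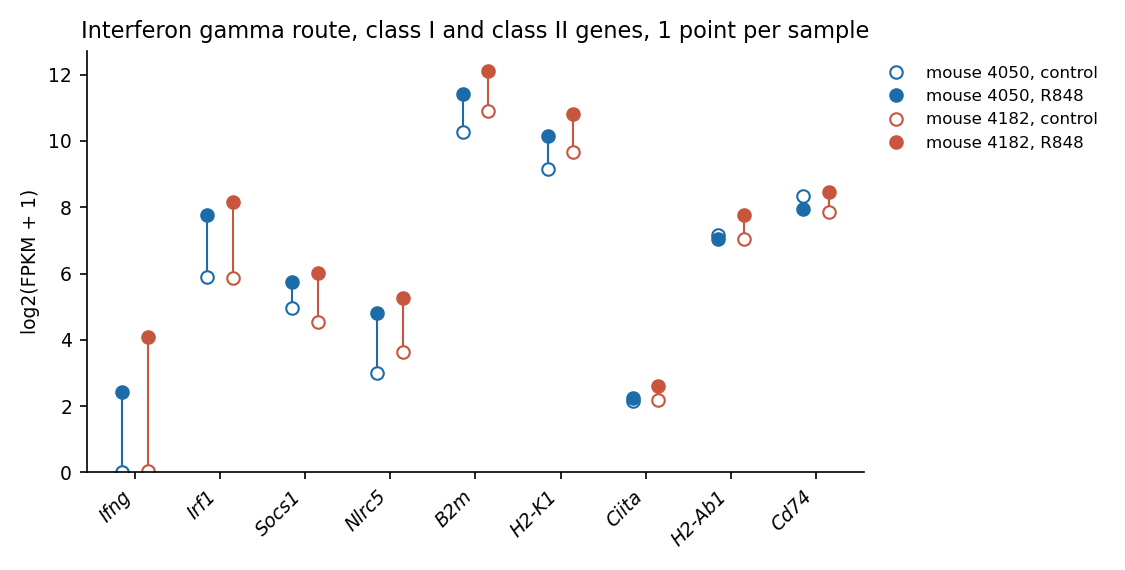
Level as log2(FPKM + 1) of interferon gamma and its pathway genes, class I genes and class II genes, with 1 point per sample (open, control; filled, R848; blue, mouse 4050; red, mouse 4182). Filled points lie above open ones in both mice from Ifng to H2-K1, with Nlrc5 at 6.96 and 11.3 FPKM in control and 27.3 and 37.0 with R848, while for H2-Ab1 and Cd74 that holds in mouse 4182 alone.

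Cells that carry class II were looked for through their markers, since the samples were not sorted as far as the labels say. Of 10 B cell markers, 7 were tested and 4 rose (5 in the paired fit), and their summed level was 17.2 to 19.3 FPKM in control and 47.3 to 48.6 with R848. Ms4a1, which encodes CD20, was at 0.313 and 7.45 FPKM in mouse 4050 and at 0.181 and 5.05 in mouse 4182 (log2 difference 2.52, limma adjusted p = 0.00553). Cd79a rose by 1.77 (0.0194). Cd79b, a signalling chain of the B cell receptor, made up 12.8 and 14.9 FPKM of the sums in control and was 1.80 and 1.96 times that with R848. Of the tested markers, 6 were higher with R848 in both mice, while Fcer2a, the IgE receptor CD23, was at 1.84 and 1.70 FPKM in mouse 4050 and at 2.18 and 1.81 in mouse 4182 (limma adjusted p = 0.897). Plasma cell markers, which mark cells known to have switched class II off, summed to 537 to 688 FPKM in control and 1169 to 1338 with R848, of which Xbp1 made up 515 and 667 FPKM in the controls. Of 7 tested, 4 rose, and Igkc and Iglc2 among them did so by 6.88 and 4.88 (limma adjusted p = 1.2e-04 and 1.8e-04), and Tnfrsf17 was at 0 in 3 of the 4 samples.

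Dendritic cell markers summed to 87.1 to 133 FPKM in control and 53.9 to 74.6 with R848, of which Clec10a, given above, made up 54.4 and 122 FPKM in the controls and 35.6 and 64.6 with R848. Of 10, 6 were tested and 0 passed by limma (1 had an unadjusted p under 0.05), and in the paired fit Itgax and Clec10a fell. Of the 6, 3 (Itgax, Zbtb46 and Clec10a) were lower in both mice and 3 (Ccr7, Batf3 and Ccl22) had opposite signs. The log2 differences of Ccr7, Batf3 and Ccl22 were 0.06, 0.11 and -0.02, and the list median was -0.10. Itgax, the integrin CD11c, was at 15.3 and 1.31 FPKM in mouse 4050 and at 3.02 and 0.584 in mouse 4182 (limma adjusted p = 0.192, and 0.00132 in the paired fit). Xcr1, Clec9a and Cd209a, which define dendritic cell subsets, were at most at 0.315 FPKM in every sample.

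Macrophage markers summed to 319 to 395 FPKM in control and 771 to 863 with R848, and 5 of 10 rose and 1 fell by limma (7 and 1 in the paired fit). In both mice 7 were higher and 2 (Mrc1 and Cd68) were lower, while Mertk had opposite signs. Cd68 was at 64.3 and 45.6 FPKM in mouse 4050 (control, then R848) and at 68.7 and 59.3 in mouse 4182. Marco and Fcgr1, receptors for particles and antibody, rose by 5.88 and 2.28 (limma adjusted p = 4.8e-04 and 0.00709), and Mrc1, the mannose receptor, fell by 2.96 on the log2 scale (0.0228, and 0.0853 after quantile normalization). Of the 4 T cell markers tested out of 8, 2 rose, Cd3g and Trac (limma adjusted p = 0.0327 and 0.0478), calls that ended under quantile normalization (0.0899 and 0.119), and the list summed to 3.96 to 5.74 FPKM in control and 9.86 to 14.1 with R848. Cd3g and Trac were each at 0 FPKM in 1 control. Cd3d was at 1.38 and 1.71 FPKM in mouse 4050 and at 2.41 and 2.04 in mouse 4182, a log2 difference of 0.01. Markers of blasts and progenitors summed to 6343 and 7260 FPKM in control and 7334 and 7621 with R848. Of these sums, Prtn3 made up 1805.5 and 1785.6 FPKM in control and 2324 and 2373 with R848. Ctsg made up 1917 and 2271, then 2499 and 3173. Of the 7 tested, 2 (Prtn3 and Ctsg) were higher in both mice, 3 (Kit, Cd34 and Mpo) were lower in both and 2 had opposite signs. Flt3, under the filter with a mean of 0.979 FPKM, was not tested. It was at 1.57 and 0.331 FPKM in mouse 4050 (control, then R848) and at 1.92 and 0.0942 in mouse 4182. The list median was -0.31. By limma 0 of 7 were called, with 2 at an unadjusted p under 0.05, Cd34 and Prtn3. Cd34, a progenitor surface protein, fell by 1.11 on the log2 scale in the paired fit (limma adjusted p = 0.00187, and 0.103 without the block). Prtn3, a granule protease, was 1.29 and 1.33 times its control in mice 4050 and 4182, a log2 difference of 0.39 (limma adjusted p = 0.392), and Ctsg, another, was 1.30 and 1.40 times its control (0.464). The part of these cell types in the class II values was not tested.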

How the data were processed

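The authors deposited 1 table of log2 values for the 4 samples, which its name calls log2 FPKM. Its lowest value is 0, and turning log2(x + 1) back to linear values made each sample sum to between 950530 and 962001. The submitters' processing notes name kallisto and mm10; tool versions, transcript annotation and gene summary are not given in the sources used here. Since these are no counts, no count model was run, and depth and counting error are unknown.

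From 28192 rows, 27 date-like names and 91 repeated symbols were removed (of repeats, the row with the highest mean stayed). After a filter at a mean of 1 FPKM, 12612 genes were tested two-sided by limma 3.58.1 (R 4.3.3) on log2(FPKM + 1). The variance prior was trended, with 5.27 degrees of freedom beside 2 residual ones, and p-values had Benjamini-Hochberg adjustment and a threshold of 0.05. The code was tested on simulated data. Per the labels, equal numbers mean the same mouse, so the samples are paired (deviations by mouse correlated at 0.289 over genes). The main fit was unpaired. The paired fit, with the mouse as a block, is given by gene or in the count of a list where it alters a call. Coordinates are from GENCODE M21 (GRCm38) and figures from matplotlib 3.10.9.

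The members and lists were chosen with earlier results of these data known. The naming rule took all members, the genes of the region and, per list, the 2 called genes with the highest and lowest change or, with none called, the 2 smallest p. Irf1, Socs1, other genes given as values only, and genes named for the paired fit were picked after seeing values. Listed genes without a match are not analysed here. Some values are left out of the text. Alternatives were a pseudocount of 0.1, no filter, a filter of 5 FPKM, quantile normalization, median log ratio scaling, other priors, pairing, no treatment term and leaving out each sample.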

Additional observations from a re-analysis of the deposited data

How the results depend on the processing

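Of the 10 members, 0 passed in either direction for R848 against control under any alternative run, the paired fit with the mouse as a block included (at the filter of 5 FPKM Ciita was not among the genes tested). Over all genes, the replicate block gave 429 higher and 240 lower in place of 185 and 48, no filter 0 and 0, quantile normalization 78 and 12, median log ratio scaling 91 and 15, and the robust prior 99 lower. Leaving out 1 sample gave 46 (without R848 of mouse 4182) to 259 higher and 10 to 136 (without control of mouse 4050) lower. Between the mice, the 1 member called became 0 with no filter and without the treatment term. All genes higher in mouse 4182 went from 59 to 0 with no filter, 93 at 5 FPKM, 31 after quantile normalization, 33 with a prior without trend, 95 with the robust prior and 5 without the treatment term. Those lower went from 113 to 0, 40 (quantile), 52 (median log ratio), 50 (no trend) and 1 (no treatment term).

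Leaving out 1 sample turned the sign of uncalled log2 differences. They ran from -0.076 to 0.68 for H2-Aa, -0.074 to 0.64 for H2-Ab1, -0.029 to 0.56 for H2-Eb1, -0.25 to 0.49 for H2-DMa, -0.19 to 0.92 for H2-DMb1, -0.020 to 0.31 for H2-Oa, -1.22 to 0.14 for H2-Ob, -0.17 to 0.37 for Cd74, -0.17 to 0.23 for Tap2, -0.24 to 0.051 for Brd2 and -0.17 to 0.050 for H2-Eb2. H2-Eb2 was at 0.00397 after quantile normalization and 0.012 after median log ratio scaling. A lone sample left in a group was assumed to vary like the others. The causes were not tested.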
